A study of Mus musculus with 12 samples.

Results

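Semaphorins are guidance cues for growing axons and migrating neurons, and plexins and neuropilins are their receptors. The deposited table listed all 31 genes of these families that were looked for, among 23352 gene rows, and their rows were found by gene symbol. They comprised 20 semaphorins, 9 plexins and 2 neuropilins. The list was chosen with earlier results of these data known. Total RNA of microdissected mouse neocortex at embryonic day 16 (E16) was profiled in 12 libraries that form 4 groups. The Nfia line, with strain label Nfia{tm1Rmg}(C57BL/6), gave 2 wild types and 4 libraries labelled homozygous Nfia knockout. The Nfib line, Nfib{tm1Rmg}(C57BL/6), had 2 wild-type libraries and 4 homozygous Nfib knockout libraries. NFIA and NFIB belong to the nuclear factor I (NFI) family of transcription factors, and each line asks which neocortical transcripts differ when its factor is disrupted. The table gives 1 value per gene and group, the authors' weighted average in FPKM (fragments relative to transcript length and library size), so the spread between libraries and the read depth are unknown. It also gives, for each line, the authors' comparison of knockout with wild type, as a log2 fold, a p and a q, and a gene was called changed at q of at most 0.05.

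Secreted class 3 semaphorins bind a neuropilin, which signals through a plexin partner, whereas Sema3e and the membrane-bound semaphorins of the other classes can bind plexins directly. The plexin's intracellular part acts on small GTPases and so on the cytoskeleton of the growth cone. In developing mouse neocortex these cues act on the radial migration of projection neurons, on the sorting of interneurons into the cortex and on the path of callosal axons, and mice lacking Nfia or Nfib have defects of the corpus callosum.

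The start regions of 4 members are shown because the text turns on them: Nrp1, called lower in both comparisons, and Nrp2, Sema5a and Sema6d, which had the largest called folds among the other members with a promoter in the reference. Sequences are RefSeq promoters of build GRCm38.p6, from 250 bases before to 50 bases after the transcript start, read 5′ to 3′ on the gene's strand. The deposited values come from the earlier build mm9 and were not joined to these coordinates. Capitals mark TGGCA, the core of an NFI half-site, and TTGGC, the outer arm of the NFI palindrome, on either strand, which overlap by 4 letters where both occur in TTGGCA.
Nrp1, chr8:128358823-128359122 (+): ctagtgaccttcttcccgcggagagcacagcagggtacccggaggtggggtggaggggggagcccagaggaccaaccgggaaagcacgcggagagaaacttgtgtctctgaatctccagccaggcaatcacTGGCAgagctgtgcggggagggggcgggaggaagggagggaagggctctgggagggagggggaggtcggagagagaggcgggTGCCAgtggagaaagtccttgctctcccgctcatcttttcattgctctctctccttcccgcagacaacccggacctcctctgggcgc
Nrp2, chr1:62703067-62703366 (+): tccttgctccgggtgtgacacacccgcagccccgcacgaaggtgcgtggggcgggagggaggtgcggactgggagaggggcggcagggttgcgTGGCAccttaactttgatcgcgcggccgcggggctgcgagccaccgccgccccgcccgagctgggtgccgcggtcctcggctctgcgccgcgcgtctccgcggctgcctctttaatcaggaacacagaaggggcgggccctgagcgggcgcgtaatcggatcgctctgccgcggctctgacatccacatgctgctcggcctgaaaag
Sema5a, chr15:32244563-32244862 (+): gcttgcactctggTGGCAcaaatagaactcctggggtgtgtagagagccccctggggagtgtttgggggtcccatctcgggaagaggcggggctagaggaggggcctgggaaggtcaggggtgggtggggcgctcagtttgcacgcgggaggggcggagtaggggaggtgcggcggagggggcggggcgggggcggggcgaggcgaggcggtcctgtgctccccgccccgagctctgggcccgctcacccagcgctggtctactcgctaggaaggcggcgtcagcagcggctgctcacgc
Sema6d, upstream start, chr2:124089719-124090018 (+): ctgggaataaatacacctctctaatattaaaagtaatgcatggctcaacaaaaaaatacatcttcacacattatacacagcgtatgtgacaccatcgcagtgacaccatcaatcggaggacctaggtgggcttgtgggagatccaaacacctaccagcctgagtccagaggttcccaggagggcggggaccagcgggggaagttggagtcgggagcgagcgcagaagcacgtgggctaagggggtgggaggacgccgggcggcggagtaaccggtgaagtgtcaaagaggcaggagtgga
Sema6d, downstream start, chr2:124653331-124653630 (+): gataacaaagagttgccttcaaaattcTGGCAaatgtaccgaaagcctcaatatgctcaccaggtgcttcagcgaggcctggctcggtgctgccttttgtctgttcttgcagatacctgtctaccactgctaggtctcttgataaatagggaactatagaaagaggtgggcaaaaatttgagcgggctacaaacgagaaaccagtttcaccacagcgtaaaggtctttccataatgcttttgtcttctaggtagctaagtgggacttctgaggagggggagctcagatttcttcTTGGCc

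Nrp1 held TGGCA 2 times, Nrp2 and Sema5a 1 time each, and Sema6d held TGGCA and TTGGC 1 time each at its downstream start and neither at its upstream start. TGGCA occurred in 20 of 37 promoters of the 26 members with an entry (54.1%), against 48.9% of all 32851 promoters in the reference. TTGGC occurred in 10 of the 37 (27.0%), against 46.7% of all promoters. Of the 10 promoters of members called in either comparison, 5 held TGGCA and 2 held TTGGC. The whole NFI palindrome, the arms TTGGC and GCCAA with any 5 bases between, was in none of the 37 and in 12 of all 32851 (0.0365%). These are matches of letters in a short window, not binding sites.

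The targeted genes gave an unequal check of the labels. Nfib stood at 134 FPKM in its wild types and 9.12 FPKM in the Nfib knockouts, a log2 fold of -3.86 per the authors' deposited table (q = 0.00207). Nfia stood at 33.7 FPKM in its wild types and 28.2 FPKM in the group labelled knockout, a log2 fold of -0.27 per the authors' deposited table that did not pass (q = 0.477), so that group is called labelled Nfia knockout throughout. The FPKM covers the gene as a unit, and which part the allele removes is not given in the sources used here.

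The groups also differed in what tissue and sex they held. Markers of the neocortex were present in every group, with 10 of 10 listed above 0 and a summed level between 1166 and 1477 FPKM. Of these, Eomes was lower in the labelled Nfia knockouts, and Tbr1, Bcl11b and Pax6 were higher in the Nfib knockouts. The 12 ventral forebrain markers summed to 76.4 FPKM in the Nfia-line wild types, 126.7 in the labelled Nfia knockouts, 114.8 in the Nfib-line wild types and 58.9 in the Nfib knockouts. The 8 choroid plexus markers summed to 0.996, 2.17, 1.83 and 99.8 FPKM in the same order, nearly all of the last being Ttr at 94.8 FPKM, and Folr1 was listed at 0 in the Nfib-line wild types. The 10 meningeal markers summed to 5.62, 5.34, 14.1 and 5.51 FPKM and the 6 markers of thalamus and diencephalon to 2.13, 4.35, 5.51 and 2.25 FPKM. Endothelial and pericyte markers (75.4 to 86.4 FPKM) and microglial markers (23.9 to 25.7 FPKM) varied less. The inactive X transcript Xist was at 161 FPKM in the Nfia-line and 0.207 FPKM in the Nfib-line wild types, and the Y-linked Ddx3y at 0.0330 and 11.5 FPKM, so the sexes were not balanced between groups. In bulk tissue a smaller number of cells of a type and less RNA per cell cannot be told apart. The part of tissue composition and of sex in the levels and folds of the members was not tested.

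**Figure D1:**
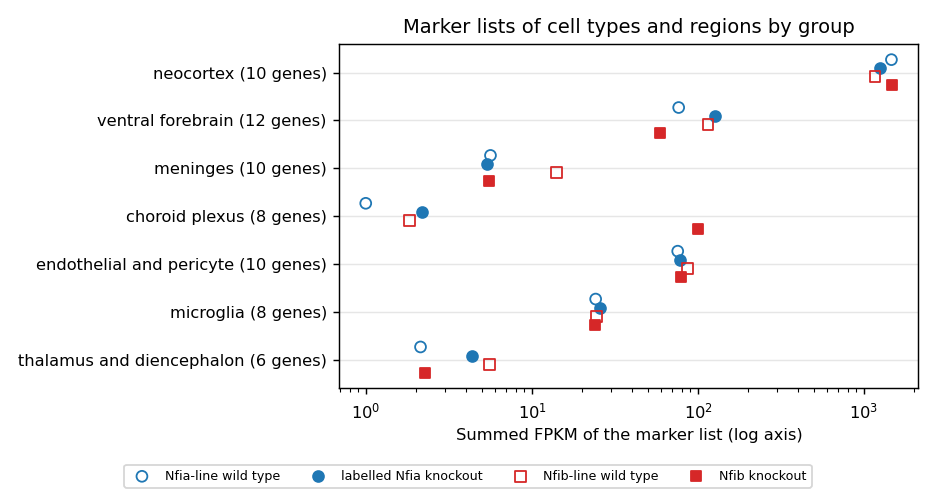
Summed FPKM of the marker lists in each group on a log axis, with open symbols for wild types and filled symbols for knockouts and small vertical offsets for legibility. Choroid plexus markers reach 99.8 FPKM in the Nfib knockouts, and ventral forebrain markers run from 58.9 to 126.7 FPKM in opposite orders in the 2 lines.

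Most members were well expressed, 26 of 31 at 1 FPKM or more in every group. On this per-length scale the plexins led: Plxna2, a receptor for class 6 semaphorins, had a mean of 76.4 FPKM over the 4 groups, Plxna4 55.0, Plxna3 43.5, Plxnb2, a receptor for Sema4c and Sema4d, 41.8 and Plxna1 32.7. Among ligands the highest means were Sema4g at 43.1 FPKM, Sema6c at 35.8, Sema4c at 33.2, Sema7a at 25.2 and Sema6d at 23.0. The class 3 ligands fell into a higher set of Sema3a, Sema3c and Sema3f at 13.3 to 16.4 FPKM and a lower set of Sema3b, Sema3d, Sema3e and Sema3g at 0.340 to 0.947 FPKM. In the RefSeq annotation 15 members overlap another gene, and for 3 of them (Sema6d, Nrp1 and Nrp2) that gene has a row of its own, at 0.609 FPKM or less in every group. Plxnb3 had the lowest mean, 0.0751 FPKM, and was the only member with a deposited p of 1, counted as not tested.

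**Figure D2:**
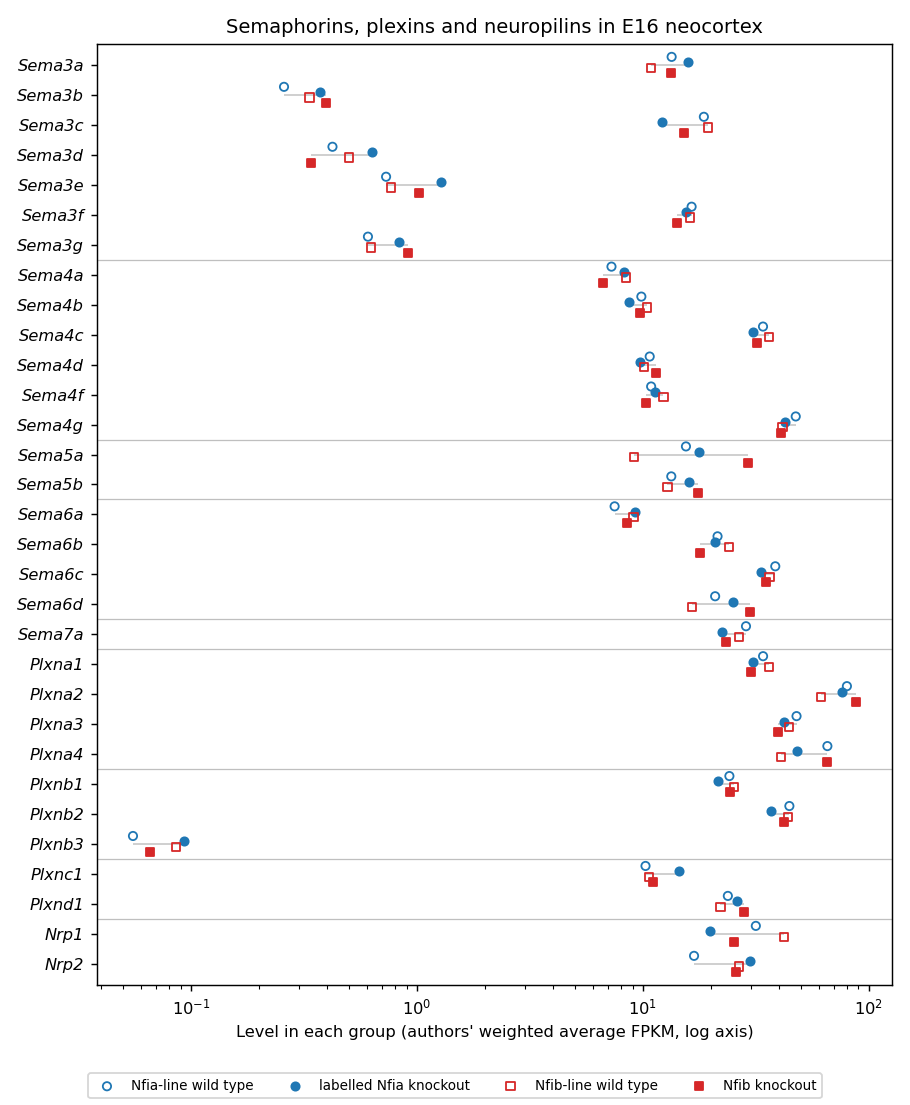
Level of each member in the 4 groups, in the authors' weighted average FPKM on a log axis, with grey lines joining the lowest and highest group and separators between families. The lowest 5 members lie near or under 1 FPKM, while Sema5a spreads from 9.15 to 29.2 FPKM and Nrp1 from 19.9 to 42.2.

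In the labelled Nfia knockouts, 3 of 30 tested members were higher and 3 lower per the authors' deposited table, against 2.69% and 1.10% of all 13736 genes tested. Nrp2, Sema3e and Plxnc1 rose, and Nrp1, Sema3c and Plxna4 fell. In the Nfib knockouts 5 of 30 were higher and 1 lower per the authors' deposited table, against 2.13% and 3.26% of 13729 genes. Sema5a, Sema6d, Plxna4, Plxna2 and Sema5b rose, and Nrp1 fell. The median log2 fold of the members was -0.066 and -0.033 in the 2 comparisons, beside -0.0033 and -0.0049 for all genes tested. The median size of a fold, whatever its sign, was 0.23 and 0.26 for the members, beside 0.12 and 0.14 for all genes tested in both comparisons.

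**Figure D3:**
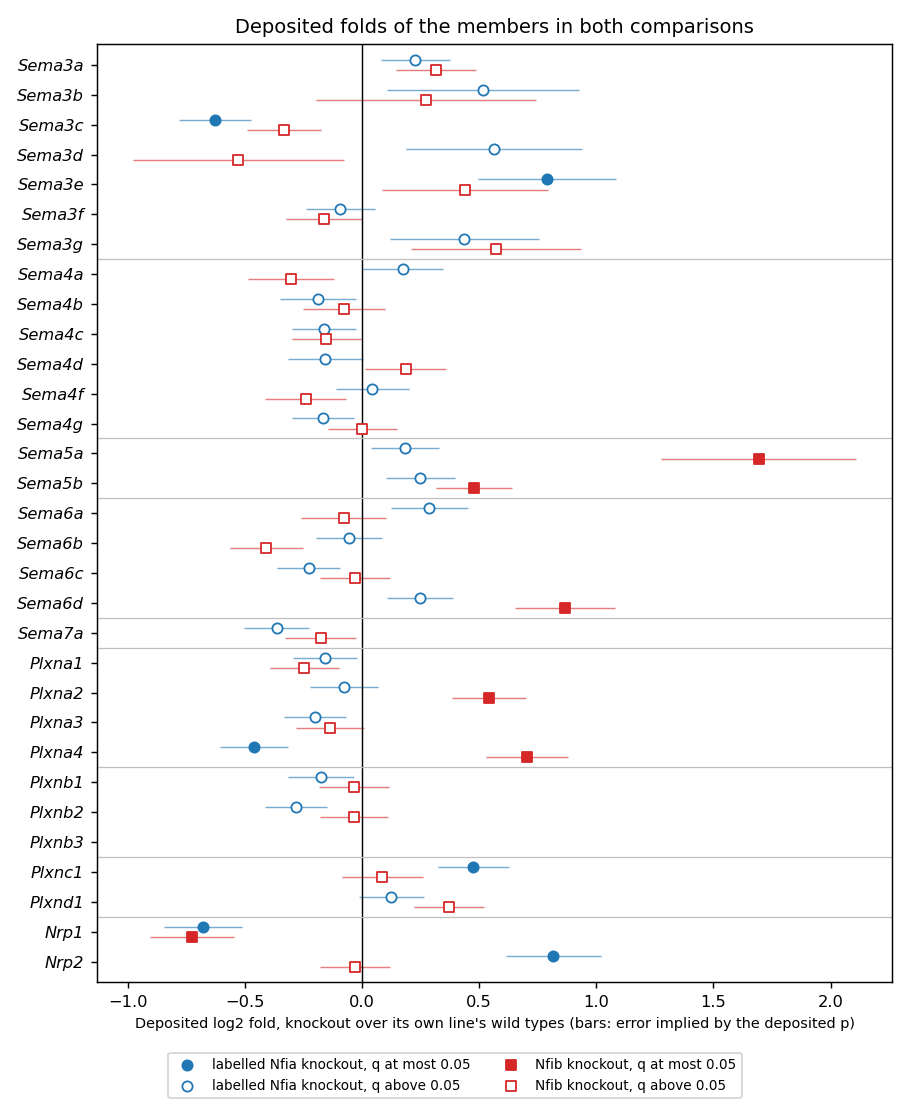
Deposited log2 fold of each tested member in both comparisons, where 0 is no difference, filled symbols passed q 0.05 and bars show the error implied by the deposited p. Nrp1 lies near -0.7 in both comparisons, whereas Plxna4 lies at -0.46 in one and 0.70 in the other.

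Nrp1, the neuropilin that binds Sema3a and a receptor carried by callosal axons in mouse, was lower in both knockouts. Its level was 31.6 FPKM in the Nfia-line wild types and 19.9 in the labelled Nfia knockouts, and 42.2 in the Nfib-line wild types and 25.3 in the Nfib knockouts. Both knockout averages therefore lay below both wild-type averages. The log2 folds per the authors' deposited table were -0.68 (q = 0.00286) and -0.73 (q = 0.00207), with implied errors of at most 0.17 and 0.18. Their sizes depended on the reference: against the other line's wild types, the labelled Nfia knockouts stood at -1.08 and the Nfib knockouts at -0.32 on the log2 scale. The fold differed between lines by -0.047 ± 0.25 (implied error of the difference, adjusted p = 0.9997 over all genes by the approximate test on the authors' deposited folds), which does not show that the lines act alike. Only Nrp1 and Plxna4 were called in both comparisons, 2 of 30 members against 1.34% of 13559 genes. Endothelial cells also carry Nrp1. The 10 endothelial and pericyte markers had 0 calls in the labelled Nfia knockouts and 1 in the Nfib knockouts. That was Cldn5, which fell by 0.54 on the log2 scale per the authors' deposited table (q = 0.0372). The part of cell composition in the Nrp1 values was not tested.

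Nrp2, the neuropilin that binds Sema3f and is carried by interneurons on their way to the cortex, was called higher in the labelled Nfia knockouts and not in the Nfib knockouts. Its level was 16.8 FPKM in the Nfia-line wild types, 29.9 in the labelled Nfia knockouts, 26.7 in the Nfib-line wild types and 25.7 in the Nfib knockouts. The Nfia-line wild types stood apart as the low group, while the other 3 averages lay close together. The log2 folds were 0.82 (q = 0.00286) and -0.032 (q = 0.998) per the authors' deposited table, and their difference of -0.85 ± 0.25 passed the approximate test (adjusted p = 0.0245). Set against the Nfib-line wild types, the fold of the labelled Nfia knockouts was 0.17. That of the Nfib knockouts against the Nfia-line wild types was 0.61. Ventral forebrain markers were also higher in the labelled Nfia knockouts, 8 of 12 of them, with Gad1 at a log2 fold of 0.81 per the authors' deposited table. In the Nfib knockouts, where Nrp2 did not pass, 8 of the 12 were lower, with Gad1 at -0.63 per the authors' deposited table. The part of these cells in the Nrp2 values was not tested.

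Among the class 3 ligands, Sema3c, a secreted attractant that in mouse is made by guidepost neurons of the corpus callosum and acts through Nrp1, fell in the labelled Nfia knockouts. Its level was 18.6 FPKM in the Nfia-line wild types and 12.1 in the labelled Nfia knockouts, and 19.5 and 15.3 in the Nfib line. The wild-type averages lay close together and both knockout averages below them. The log2 folds were -0.63 (q = 0.00286) and -0.33 (q = 0.242) per the authors' deposited table, and the difference of 0.29 ± 0.22 did not pass (adjusted p = 0.740). Sema3e, a ligand that binds Plxnd1 without a neuropilin, was low throughout. It rose from 0.730 to 1.27 FPKM in the labelled Nfia knockouts, with a log2 fold of 0.79 per the authors' deposited table (q = 0.0121) that came to 0.39 with a pseudocount of 1 FPKM, and stood at 0.765 and 1.02 FPKM in the Nfib line (q = 0.480). Plxnd1, its receptor, was at 23.8 and 26.1 FPKM in the Nfia line and at 22.04 and 28.1 in the Nfib line, and passed in neither comparison per the authors' deposited table (q = 0.955 and 0.133). Sema3a, the classical repellent of cortical axons, had log2 folds of 0.23 (q = 0.658) and 0.32 (q = 0.274) per the authors' deposited table. Sema3f, the main ligand of Nrp2, stood at 14.2 to 16.4 FPKM and passed in neither. Sema3b, Sema3d and Sema3g stayed under 1 FPKM in every group and passed in neither.

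Sema5a, a membrane-bound ligand with thrombospondin repeats that binds A plexins in mouse, had the largest fold of any member. Its level was 15.5 FPKM in the Nfia-line wild types, 17.7 in the labelled Nfia knockouts, 9.15 in the Nfib-line wild types and 29.2 in the Nfib knockouts. The Nfib knockouts were the highest group and their own wild types the lowest, while both Nfia-line groups lay between. The log2 fold in the Nfib knockouts was 1.69 per the authors' deposited table (q = 0.00207, implied error at most 0.42), and computed with the wild types of the Nfia line it was 0.91. In the labelled Nfia knockouts it was 0.18 (q = 0.803) per the authors' deposited table, and the difference of 1.51 ± 0.44 between lines passed the approximate test (adjusted p = 0.0225). Sema5b, its paralog, rose in the same knockouts from 12.8 to 17.6 FPKM, a log2 fold of 0.48 per the authors' deposited table (q = 0.02999), and stood at 13.4 and 16.01 FPKM in the Nfia line (q = 0.591). For both class 5 ligands the 2 knockout averages lay above the 2 wild-type averages.

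Sema6d, a transmembrane ligand of Plxna1, rose in the Nfib knockouts from 16.5 to 29.7 FPKM. The log2 fold was 0.86 per the authors' deposited table (q = 0.00207), and with the wild types of the Nfia line it was 0.50. Sema6d stood at 20.9 FPKM in the Nfia-line wild types and 25.02 in the labelled Nfia knockouts, with a log2 fold of 0.25 per the authors' deposited table (q = 0.536). The order of the 4 groups was the same as for Sema5a, and the difference of 0.62 ± 0.25 between the authors' deposited folds of the 2 lines did not pass (adjusted p = 0.207). Sema6a, Sema6b and Sema6c passed in neither comparison, and Sema6b had the smallest q of them, 0.0911, at 24.1 and 17.9 FPKM in the Nfib line per the authors' deposited table. Sema6c stood at 38.5 FPKM in the Nfia-line wild types, 33.2 in the labelled Nfia knockouts, 36.4 in the Nfib-line wild types and 35.01 in the Nfib knockouts, with log2 folds of -0.23 (q = 0.617) and -0.031 (q = 0.998) per the authors' deposited table. Class 4 ligands, among them Sema4d, a ligand of Plxnb1, gave 0 calls among 6 in both comparisons and 0 at an unadjusted p under 0.05 (10.1% and 13.4% of all genes tested), with folds between -0.30 and 0.19 per the authors' deposited table. Sema4g was at 47.5, 42.6, 41.4 and 40.8 FPKM in the same order of groups, with log2 folds of -0.17 (q = 0.853) and 0.0017 (q = 0.999) per the authors' deposited table. Sema4c was at 34.01, 30.6, 36.1 and 32.01 FPKM, with log2 folds of -0.16 (q = 0.863) and -0.15 (q = 0.838) per the authors' deposited table. Both knockout averages of Sema4c lay below both wild-type averages, which was not so for Sema4g. Sema7a, a lipid-anchored ligand of Plxnc1 and of beta1 integrin, was at 28.6, 22.4, 26.7 and 23.3 FPKM. The log2 folds were -0.36 (q = 0.144) and -0.18 (q = 0.786) per the authors' deposited table.

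Plxna4, a receptor for Sema3a with neuropilin and for Sema6a and Sema6b, was called in opposite directions. Its level was 65.5 FPKM in the Nfia-line wild types and 48.0 in the labelled Nfia knockouts, and 40.8 in the Nfib-line wild types and 65.6 in the Nfib knockouts. The wild types of the 2 lines were the second highest and the lowest group, so a large gap lay between the references themselves. The log2 folds were -0.46 (q = 0.0401) and 0.70 (q = 0.00207) per the authors' deposited table, and their difference of 1.17 ± 0.23 passed the approximate test (adjusted p = 5.67e-05). With the wild types exchanged, the labelled Nfia knockouts stood 0.23 above the Nfib-line wild types on the log2 scale, so the fall reversed. The Nfib knockouts stood 0.0011 above the Nfia-line wild types, so the rise was no longer seen. Summed neocortex markers had the same order of groups as Plxna4, at 1462.5, 1245, 1166 and 1477 FPKM, Nfia line first and wild types before knockouts. The part of tissue composition in the values of Plxna4 was not tested. Plxna2, which binds Sema6a, rose in the Nfib knockouts from 61.2 to 88.0 FPKM, a log2 fold of 0.54 per the authors' deposited table (q = 0.0152) that came to 0.14 against the Nfia-line wild types. Plxna2 stood at 80.0 and 76.4 FPKM in the Nfia line (q = 0.999 per the authors' deposited table). Plxna1 was at 34.04 and 30.7 FPKM in the Nfia line and at 36.1 and 29.97 in the Nfib line, and Plxna3 at 47.9 and 42.0 and at 44.4 and 39.8, wild types first. Both passed in neither comparison, with log2 folds from -0.25 to -0.14 per the authors' deposited table. Plxna3 is X-linked, and the sexes differed between groups.

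Plxnc1, the receptor of Sema7a, rose in the labelled Nfia knockouts from 10.3 to 14.4 FPKM. The log2 fold was 0.47 per the authors' deposited table (q = 0.0258), and 0.44 against the Nfib-line wild types. In the Nfib line Plxnc1 stood at 10.6 FPKM in wild types and 11.1 in knockouts, so 3 of the 4 averages lay together and the labelled Nfia knockouts above them. The difference between the authors' deposited folds of the 2 lines was -0.39 ± 0.23 (adjusted p = 0.546). Plxnb1 and Plxnb2 passed in neither comparison, with the largest fold among them -0.28 for Plxnb2 in the labelled Nfia knockouts per the authors' deposited table (q = 0.365). Plxnb2 stood at 44.5 and 36.9 FPKM in the Nfia line and at 43.8 and 42.2 in the Nfib line, wild types first.

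The wild types of the 2 lines differed by more than 0.5 on the log2 scale for 3 of 30 members, against 6.81% of 13559 genes: Sema5a (-0.75, Nfib line minus Nfia line), Plxna4 (-0.68) and Nrp2 (0.66). These were also the 3 members whose folds differed between the lines by the approximate test. Of 30 members, 2 had the higher fold in the Nfib knockouts and 1 in the labelled Nfia knockouts, against 1.01% and 2.76% of 13554 genes. Each wild-type average is one side of the fold, so the 2 counts are not independent. In 8 of the 30 tested members both knockout averages lay above both wild-type averages, against 14.7% of 13559 genes, and in 11 both lay below, against 17.6%. The 8 were Sema3b, Sema3e, Sema3g, Sema5a, Sema5b, Sema6d, Plxnc1 and Plxnd1. The 11 were Sema3c, Sema3f, Sema4b, Sema4c, Sema6b, Sema6c, Sema7a, Plxna1, Plxna3, Plxnb2 and Nrp1. Of these 19 members, 7 had a call in at least 1 comparison, against 10.1% of the 4371 genes with either order, and no test was made of the counts.

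**Figure D4:**
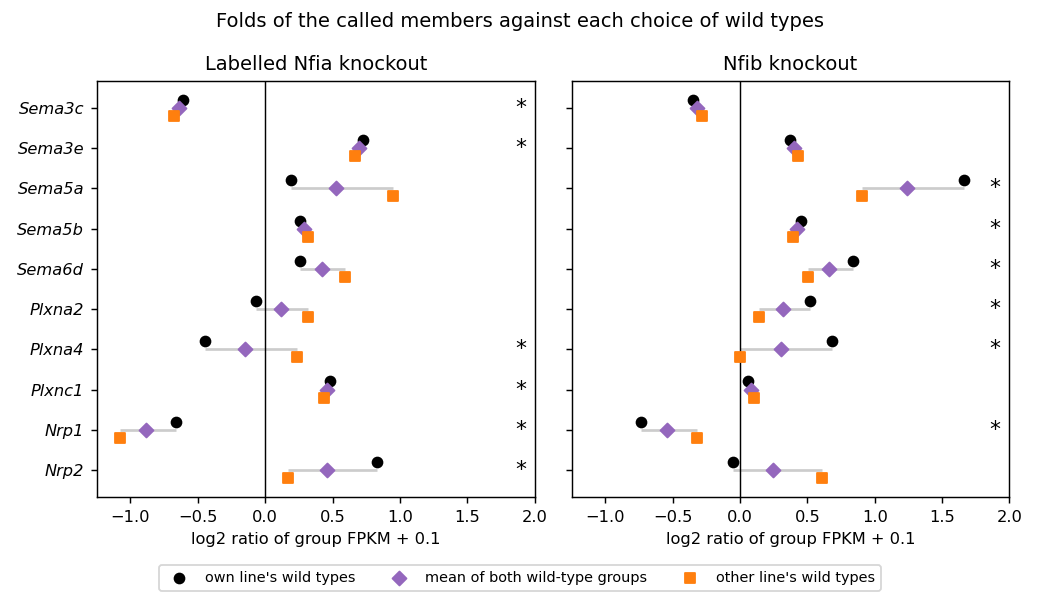
Log2 ratio of group FPKM + 0.1 for the 10 members called in at least 1 comparison, against their own line's wild types, the mean of both wild-type groups and the other line's wild types. Asterisks mark the comparison in which the deposited q was at most 0.05. Sema3c, Sema3e, Sema5b and Plxnc1 hardly move with the reference, whereas Plxna4 crosses or reaches 0. Nrp2 in the Nfib knockouts and Plxna2 in the labelled Nfia knockouts, neither called there, also cross 0.

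Genes that act with these receptors were read from a list of 54, with Arhgap35 under its older symbol Grlf1. In the labelled Nfia knockouts 1 was higher and 1 lower per the authors' deposited table, against 2.69% and 1.10% of all genes. Rnd3, a small GTPase of migrating cortical neurons, rose from 29.9 to 44.8 FPKM (log2 fold 0.57, q = 0.00689 per the authors' deposited table), and the Slit receptor Robo1 fell from 74.0 to 55.3 FPKM (-0.43, q = 0.0380). In the Nfib knockouts 2 were higher and 4 lower per the authors' deposited table, against 2.13% and 3.26%. Rnd2, a GTPase of the same family, rose from 87.2 to 167 FPKM (log2 fold 0.96, q = 0.00207 per the authors' deposited table), and the adhesion gene Nrcam, whose product forms complexes with Nrp2, from 35.3 to 49.0 FPKM (0.49, q = 0.0201). Mical2, of the actin-oxidising enzymes that act below plexins, fell from 7.48 to 2.95 FPKM, a log2 fold of -1.33 per the authors' deposited table. Met, a receptor kinase that can pair with B plexins, fell from 3.86 to 1.74 FPKM, a log2 fold of -1.13 per the authors' deposited table. Dpysl4, of the collapsin response mediator family, had a log2 fold of -0.73 and Rap1gap, a regulator of Rap, of -0.63 per the authors' deposited table. Against the Nfia-line wild types the folds of Dpysl4, Met, Mical2, Rap1gap, Rnd2 and Nrcam were -0.089, -0.64, -0.92, -0.36, 0.56 and 0.18, and that of Robo1 in the labelled Nfia knockouts, against the Nfib-line wild types, was 0.23. The authors' deposited folds differed between lines by the approximate test for Dpysl4 (adjusted p = 0.000193), Rnd2 (0.00319), Mical2 (0.00445), Rap1gap (0.00803) and Robo1 (0.00814), 5 of 54 against 3.77% of 13554 genes.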

How the data were processed

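The analysis used 1 table deposited by the authors, with weighted average FPKM per group and the authors' own comparison within each line, given as a log2 fold, a p-value and a q-value, per the file headers. TopHat2 2.0.10, Cuffdiff 2.1.1, Cufflinks and CASAVA 1.8.2 are named with the build mm9, per the submitters' processing notes. How strand was handled is not given in the sources used here: antisense and overlapping genes cannot be separated. The table has no values per library: depth is unknown, no spread can be given, and a level in FPKM or a fold moves with library scaling. Nothing in the labels ties a library to its own embryo, so the deposited p-values may measure technical spread.

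The deposited q-values equal, within 7.32e-05, Benjamini-Hochberg adjustment over rows with p under 1, and these rows counted as tested. The smallest deposited p is 5e-05. The error of a fold was taken as its size over the normal deviate of its p, raised to the running median of 501 genes of similar FPKM, and is an upper limit at the smallest p. The approximate test divides the difference of the 2 folds by their combined error, two-sided, with Benjamini-Hochberg adjustment over 13554 genes. On simulated folds for these genes it called 2 of 50 true log2 differences of size 0.5, 13 of 50 of size 1, 24 of 50 of size 1.5 and 34 of 50 of size 2, beside 4 calls among 13354 unchanged genes, so it misses most small differences. The simulated errors were normal, as the test assumes, and held no difference of sex or tissue between groups. The 4 calls therefore do not give the rate of false calls in the real data. Ratios against other wild types used log2(FPKM + 0.1). Members, gene lists and tests were chosen with earlier results of these data known. Described in full were members called in either comparison and the 5 ligands and 5 receptors with the highest mean FPKM, and partner genes that passed. The last 25 bases of 31 of 37 promoters were found in a GENCODE M21 transcript of the gene, a check of strand. Scripts ran on Python 3.11.15 with matplotlib 3.10.9, scipy 1.17.1, pandas 2.3.3 and numpy 2.4.6. The values of 1 neocortical marker gene are not reported here.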

Additional observations from a re-analysis of the deposited data

Results flagged for a closer look

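The log2 fold differed between the lines, by the approximate test adjusted over all genes, for 3 members. The fold in the Nfib knockouts minus that in the labelled Nfia knockouts was 1.51 for Sema5a, 1.17 for Plxna4 and -0.85 for Nrp2. The folds themselves, per the authors' deposited table, were 0.18 and 1.69 for Sema5a, -0.46 and 0.70 for Plxna4, and 0.82 and -0.032 for Nrp2, labelled Nfia knockout first. The wild types of the lines also differed for these members, by -0.75, -0.68 and 0.66 on the log2 scale, Nfib line minus Nfia line. The differences of folds are not independent of those gaps.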

How the results depend on the processing

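No paired analysis was possible because the table holds group averages without a value per library, and leaving out a library was not run for the same reason. At q of at most 0.01, the members higher in the labelled Nfia knockouts numbered 1 and in the Nfib knockouts 3. At q of at most 0.10, the members lower in the Nfib knockouts numbered 2. With an unadjusted p under 0.05, the labelled Nfia knockouts had 5 higher and 5 lower members and the Nfib knockouts 7 higher and 3 lower. Of all genes tested, 10.1% of 13736 and 13.4% of 13729 had such a p in either direction. A fold of at least 1.5 left 3 members higher in the Nfib knockouts. No share of all genes is given at q of 0.01 or 0.10 or at this fold, so those counts describe the members only. The log2 fold of Plxna4 in the labelled Nfia knockouts reversed to 0.23 against the Nfib-line wild types, and the cause was not tested. Of 34 log2 folds of named members, 20 moved by less than their implied error against the other line's wild types. Another 13 moved by more without a called value changing sign, and 1 reversed. Against the mean of both wild-type groups 23 moved by less and 11 by more, without a called value changing sign. The 11 include the called folds of Nrp1, Plxna4, Nrp2, Sema5a and Plxna2, with Plxna4 at -0.15 in the labelled Nfia and 0.30 in the Nfib knockouts. With a pseudocount of 0.1, and with the median fold of all genes subtracted, all 34 moved by less than their implied error. A pseudocount of 1 moved 1 fold by more, that of Sema3e in the labelled Nfia knockouts, to 0.39. The number of members whose folds differ between lines was 3 without the running median and 4 at an adjusted p of 0.10, both within 1.5 times the main count.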
